A study of Homo sapiens with 8 samples.

Results

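Genes of glycolysis and of the tricarboxylic acid (TCA) cycle were followed in RNA-seq of 2 Burkitt lymphoma cell lines treated with chidamide. The members are 33 named genes, matched by gene symbol among the 18143 gene labels that could be placed on their values, and all 33 were found and passed the filter on low values. The list holds 4 membrane transporters, 9 genes of upper glycolysis, 6 of lower glycolysis and 2 lactate dehydrogenase subunits. It also holds 3 genes of the step that leads pyruvate towards the TCA cycle, called pyruvate entry below, and 9 genes of the TCA cycle. Raji is a B cell line from Burkitt lymphoma that is sensitive to the CD20 antibody rituximab, and Raji-4RH is a resistant line that was derived from Raji by repeated exposure to rituximab. Both lines received chidamide, an inhibitor of histone deacetylases (HDAC) of the benzamide class, at 3 μM for 24 h, or the solvent DMSO. The 4 groups, Raji DMSO, Raji chidamide, Raji-4RH DMSO and Raji-4RH chidamide, had 2 libraries each. Resistance is represented by 1 derived line, so that resistance and any other difference between the lines cannot be told apart. The labels do not say that the replicates came from separate cultures, and the p-values then measure only the spread between these libraries, which may be technical.

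Glycolysis splits glucose into pyruvate in the cytosol. Pyruvate is then either reduced to lactate by lactate dehydrogenase and exported, or it is turned into acetyl-CoA by the pyruvate dehydrogenase complex and oxidized in the mitochondrial TCA cycle. Many steps have several isoenzymes encoded by separate genes, and proliferating lymphoma cells are known for high glycolysis and lactate export, with several of these genes described as targets of MYC and of the hypoxia factor HIF1.

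The libraries held from 13991697 to 21193441 reads, and each of the 8 libraries was nearest to its own replicate. Values are FPKM, the reads of a gene per kilobase of its length and per total of the library, so that levels can be compared between genes. All 7 B cell markers were present, and their summed level was 609.7 to 1149 FPKM. The summed level was 0.0712 to 4.89 FPKM for 4 T cell markers, 0.826 to 7.92 for 3 monocyte markers, 1.32 to 6.14 for 3 NK cell markers, 0.0446 to 2.34 for 3 fibroblast markers and 0.00705 to 0.504 for 3 epithelial markers. The T cell, monocyte, NK cell and fibroblast sums were higher with chidamide than with DMSO in both lines. The largest part of the T cell sum was CD3E, a subunit of the T cell receptor complex, which had 0.619 and 0.830 FPKM in Raji-4RH with DMSO, 2.94 and 4.10 there with chidamide, 0.0712 and 0.0524 in Raji with DMSO, and 0.444 and 0.523 there with chidamide. CD3E was called higher in Raji-4RH (1.38) and in Raji (0.48, and 0.23 without a call after quantile normalization), while CD3D and CD2 were at 0 in all 4 DMSO libraries and at most 0.539 FPKM (CD3D) with chidamide. The part of these genes in the results was not tested. In such bulk samples, fewer cells of a type and less RNA per cell cannot be told apart.

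The members spanned a wide range of levels. Over the 8 libraries, 9 members had a mean of at least 100 FPKM, 19 lay between 10 and 100 FPKM, and 5 were under 10 FPKM, namely ENO2, SLC2A3, SLC16A3, PDK1 and PDK3. The 9 abundant genes were ALDOA, TPI1, GAPDH, PGK1, PGAM1, ENO1, PKM, LDHA and LDHB, which follow each other from the aldolase step to lactate. GAPDH, the glyceraldehyde-3-phosphate dehydrogenase that the study used as its reference for Q-PCR, was the highest member with a mean of 1631 FPKM, and no TCA cycle gene had a mean above the 96.8 FPKM of MDH2. Summed over the 33 members, the level was 4669 and 4848 FPKM in Raji-4RH with DMSO, 3362 and 3490 there with chidamide, 5877 and 5829 in Raji with DMSO, and 5067 and 5068 there with chidamide. The sums with chidamide were below those with DMSO in both lines, with no overlap. Such a sum is carried mostly by its most abundant genes and does not speak for each of the 33. GAPDH had means of 1628 FPKM with DMSO and 1227 with chidamide in Raji-4RH, and 2015 and 1657 in Raji. Those of ENO1 were 679 and 433 in Raji-4RH, and 1045 and 950 in Raji. The mean was highest in Raji-4RH DMSO for 12 members, in Raji DMSO for 11, in Raji chidamide for 6 and in Raji-4RH chidamide for 4, and it was lowest in Raji-4RH chidamide for 14. Some levels carry limits. GAPDH has 62 annotated pseudogenes by name and PGAM1 has 13, with which reads could be shared. Exons of ALDOA overlap another gene on the same strand over 42.3% of their length and those of LDHB over 33.4%, and 38.9% of IDH3A and 21.3% of PDHA1 overlap a gene on the opposite strand, from which reads cannot be told apart if strand was not used in counting.

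**Figure D1:**
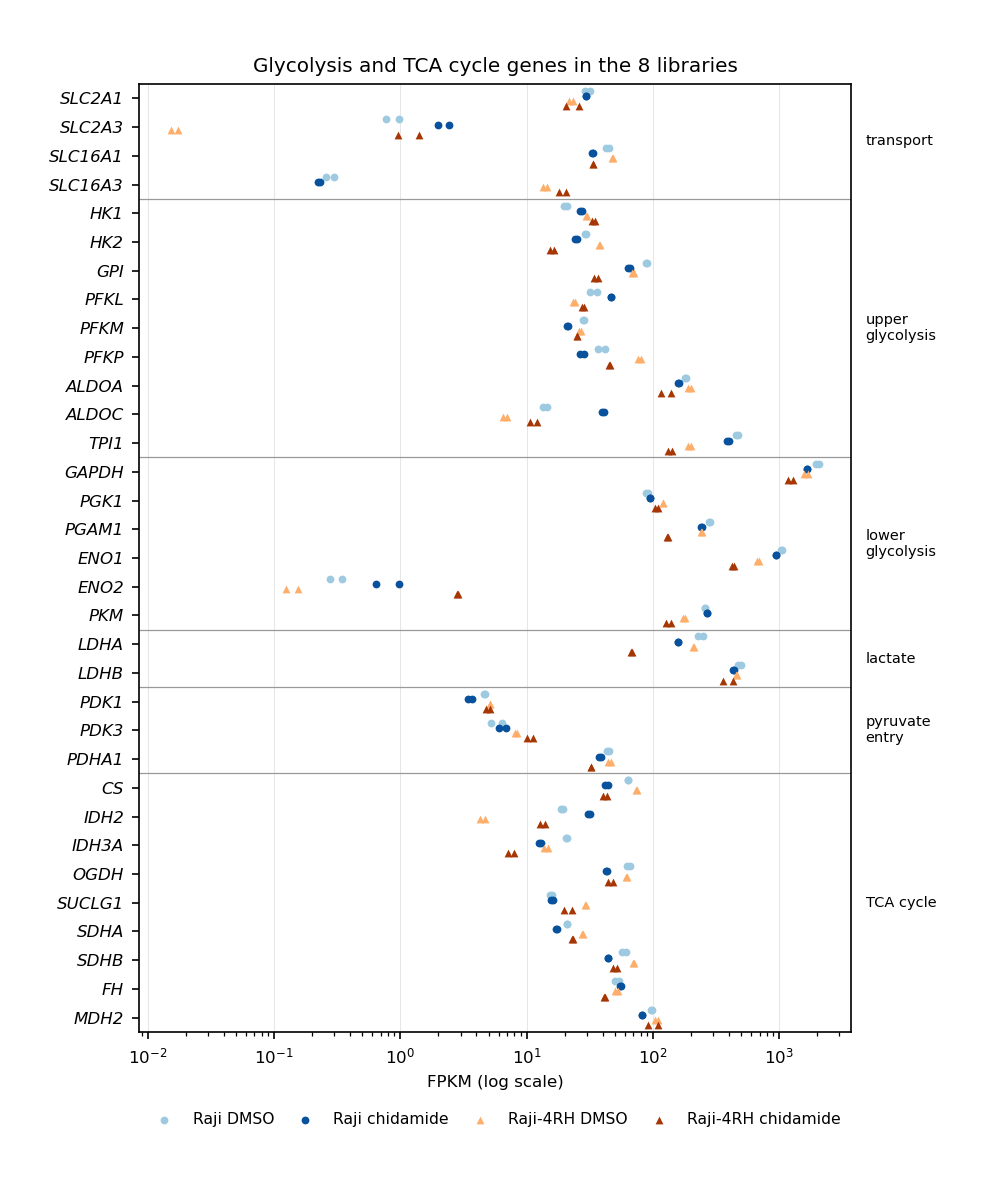
FPKM of the 33 members in each of the 8 libraries on a log axis, with the genes in order of their place in the pathway; circles are Raji, triangles Raji-4RH, pale symbols DMSO and dark symbols chidamide. SLC16A3 stands at 13.5 to 20.4 FPKM in Raji-4RH and at 0.224 to 0.298 in Raji, and the dark triangles of LDHA, at 66.9 and 68.6 FPKM, lie apart from all its other symbols.

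Promoter sequences of RefSeq on GRCh38.p14, from 250 bases before to 50 bases after the gene start, were found for 30 of the 33 members, all but SLC2A3, SLC16A1 and OGDH. The promoters of 4 members are shown. LDHA and HK2 had the largest falls with chidamide in Raji-4RH, ALDOC had the largest rise in Raji, and SLC16A3 differed the most between the lines. Capitals mark every match to ACGTG or GCGTG on either strand, the letters shared by sites described for HIF1, of which the first are also part of the E-box CACGTG described for MYC.
LDHA (chr11:18394313-18394612, plus strand): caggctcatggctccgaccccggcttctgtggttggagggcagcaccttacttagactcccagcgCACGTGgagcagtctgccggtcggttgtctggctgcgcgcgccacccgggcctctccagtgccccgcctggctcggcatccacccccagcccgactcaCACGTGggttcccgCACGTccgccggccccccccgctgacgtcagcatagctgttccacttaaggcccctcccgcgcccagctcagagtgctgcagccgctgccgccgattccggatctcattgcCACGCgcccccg
HK2 (chr2:74833877-74834176, plus strand): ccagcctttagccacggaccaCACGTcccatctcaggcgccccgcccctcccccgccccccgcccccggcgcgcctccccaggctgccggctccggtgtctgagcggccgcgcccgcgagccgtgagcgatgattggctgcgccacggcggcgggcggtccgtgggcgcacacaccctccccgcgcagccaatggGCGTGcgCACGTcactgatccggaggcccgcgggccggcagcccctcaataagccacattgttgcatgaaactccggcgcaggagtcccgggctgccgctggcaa
ALDOC (chr17:28576846-28577145, minus strand): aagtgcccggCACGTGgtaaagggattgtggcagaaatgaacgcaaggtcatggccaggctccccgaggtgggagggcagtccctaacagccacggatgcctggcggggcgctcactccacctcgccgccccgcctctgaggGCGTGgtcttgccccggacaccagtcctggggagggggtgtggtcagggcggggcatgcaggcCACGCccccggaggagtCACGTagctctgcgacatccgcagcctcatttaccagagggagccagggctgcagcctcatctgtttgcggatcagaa
SLC16A3 (chr17:82228185-82228484, plus strand): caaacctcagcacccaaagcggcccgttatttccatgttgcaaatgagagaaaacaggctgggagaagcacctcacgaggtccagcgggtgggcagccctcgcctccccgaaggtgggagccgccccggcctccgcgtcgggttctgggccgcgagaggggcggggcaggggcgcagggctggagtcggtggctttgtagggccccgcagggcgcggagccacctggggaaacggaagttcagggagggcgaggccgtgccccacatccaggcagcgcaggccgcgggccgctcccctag
These windows hold 4 stretches in capitals in LDHA, 3 in HK2, 4 in ALDOC and 0 in SLC16A3. Among the stretches, CACGTG stood at 2 places in LDHA and at 1 in ALDOC. The start sites behind the windows lie 38 to 369 bases from the gene starts of GENCODE v29. Over the 30 member promoters, CACGTG was present in 3 or 10.0% (ALDOC, GAPDH and LDHA) against 7.26% of all 35116 promoters of the same length. ACGTG was present in 9 (30.0%) against 21.4% of all, and GCGTG in 17 (56.7%) against 36.5%. CCAAT, the letters bound by NF-Y, was present in 11 (36.7%) against 34.6%, and the GC box GGGCGG in 21 (70.0%) against 45.0%. Each motif was searched on both strands, and every CACGTG also counts as an ACGTG. For the members 1 promoter per gene was used, while the 35116 promoters were counted without that limit. Nor were they selected by gene type or expression, so that the shares come from unlike sets. These matches are descriptions of letters, and no binding was measured.

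The comparison of chidamide with DMSO within Raji-4RH asked which of these genes moved with the drug in the resistant line. LDHA and HK2 showed the largest falls, followed by GPI, PGAM1, IDH3A and CS. The largest rises were those of ENO2 (1.75), IDH2 (1.40), SLC2A3 (1.09) and ALDOC (0.68), of which ENO2 and SLC2A3 had under 10 FPKM in every library. In limma at an adjusted p under 0.05, 29 of the 33 members were called, 8 higher and 21 lower, and the median change of the members was -0.40 on the scale of log2(FPKM + 1) against 0.09 for all 10710 genes tested. Among all genes, 74.9% were called, 43.3% higher and 31.6% lower, so that a call alone was common. With quantile normalization, which set the median of all genes from 0.09 to -0.02, the split of the members was 10 higher and 16 lower, with a median of -0.16. For the counts with quantile normalization, here and below, no share of all genes called was counted. By role, 5 of 9 upper glycolysis genes, 5 of 6 lower glycolysis genes, 2 of 2 lactate dehydrogenase genes, 1 of 3 genes of pyruvate entry and 7 of 9 TCA cycle genes were lower, and only the transporters had more genes higher (2 of 4) than lower (1 of 4). With quantile normalization, 3 of the 9 TCA cycle genes were lower (CS, IDH3A and SUCLG1), and the calls of the other 4 were lost.

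In Raji, 23 of the 33 members were called in the same comparison, 6 higher and 17 lower, with a median change of -0.20 against 0.02 for all genes. The background was 60.0% of all genes called, 31.5% higher and 28.5% lower. The 2 comparisons share no library. In both lines 6 members were higher (HK1, PFKL, ALDOC, ENO2, SLC2A3 and IDH2) and 14 were lower (HK2, GPI, PFKP, TPI1, GAPDH, PGAM1, LDHA, SLC16A1, PDHA1, CS, IDH3A, OGDH, SDHA and SDHB), and no member was called in opposite directions in this fit. With quantile normalization PFKM was called higher in Raji-4RH (0.15) and remained lower in Raji. Among all genes tested, 25.1% were called higher in both lines, 21.2% lower in both and 3.46% in opposite directions. Called in Raji-4RH and not in Raji were 2 rises (SLC16A3 and PDK3) and 7 falls (ALDOA, PGK1, ENO1, PKM, LDHB, SUCLG1 and FH), and 3 falls were called in Raji and not in Raji-4RH (PFKM, PDK1 and MDH2). Some of these differences depended on the fit. In Raji, ALDOA (-0.22) and ENO1 (-0.18) were called lower with median-centred libraries, and ENO1 (-0.23) and LDHB (-0.22) with quantile normalization. With quantile normalization SLC16A3 was also called lower in Raji (-0.32), and PDK1 lower in Raji-4RH (-0.23). SLC2A1 was called in neither line, but it was called higher in Raji-4RH with quantile normalization (0.26).

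Whether the response differed between the lines was tested as an interaction, the change in Raji-4RH minus the change in Raji. Of the 33 members, 20 differed, 5 with a higher and 15 with a lower value in Raji-4RH, against 48.8% of all genes, 27.2% higher and 21.7% lower. The absolute change was larger in Raji-4RH for 17 of the 20 and larger in Raji for 3. This split was not counted over all genes, of which 74.9% were called in Raji-4RH and 60.0% in Raji. The median difference of the members was -0.21 against 0.04 for all genes. With quantile normalization 14 members differed, 5 higher and 9 lower, and without Raji-4RH DMSO replicate 2 the count was 13. The differences of LDHA (-1.03), HK2 (-0.98), ALDOC (-0.79), IDH2 (0.71), PGAM1 (-0.67), GPI (-0.52) and ENO1 (-0.51) were called in each alternative fit that was run for single genes, as were those of ENO2 (1.29), SUCLG1 (-0.45), FH (-0.42) and PFKM (0.33). On the side of higher values, ENO2 and IDH2 were followed by SLC16A3 (0.48), whose call was lost with voom on the recovered reads (0.73, adjusted p = 0.0849). PKM (-0.45) was not called with quantile normalization (-0.24), and TPI1 (-0.27) turned to 0.0194.

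**Figure D2:**
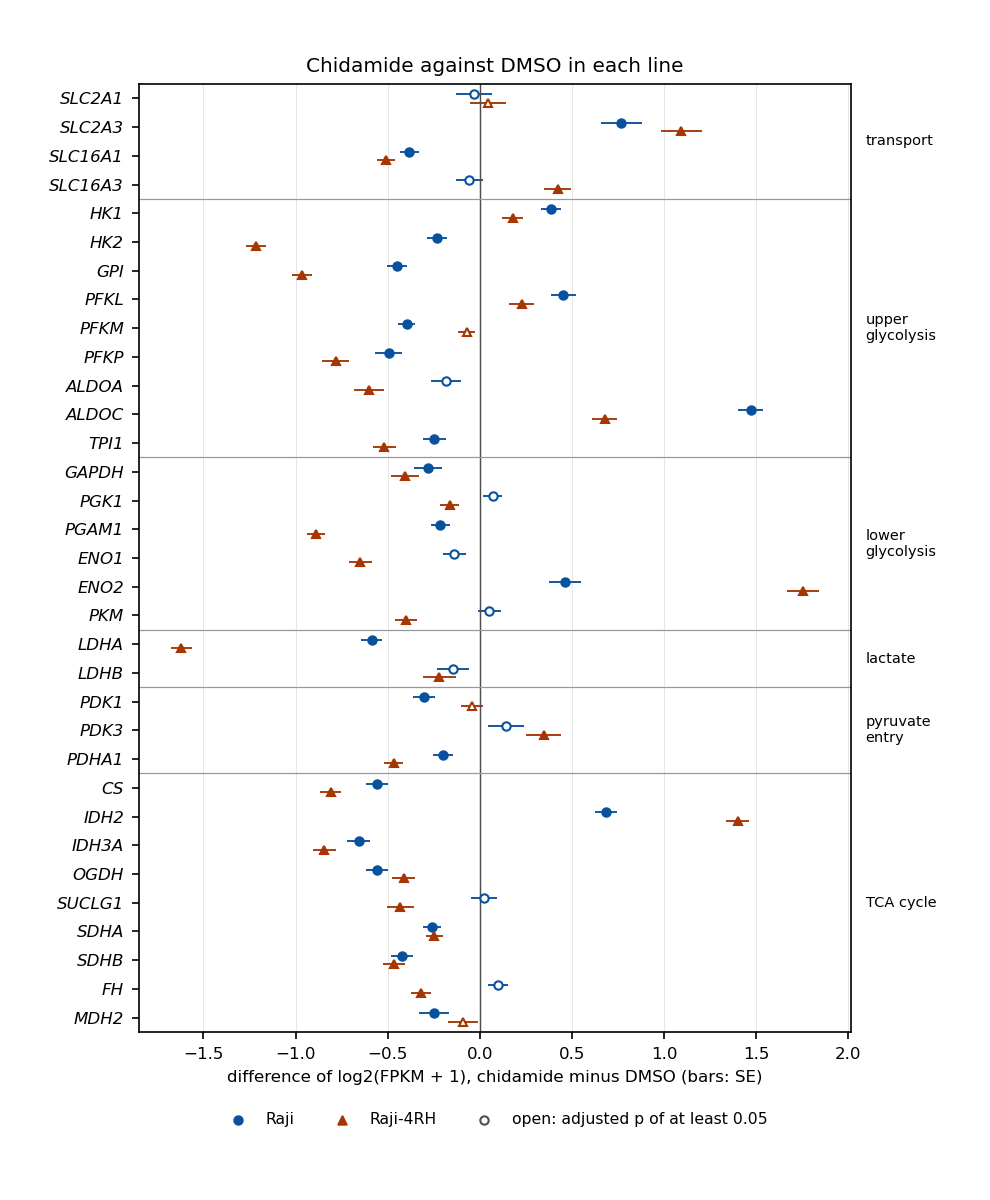
Difference of log2(FPKM + 1) between chidamide and DMSO for the 33 members in Raji (blue circles) and Raji-4RH (brown triangles), with bars for the standard error of the fit over 8 libraries and open symbols for an adjusted p of at least 0.05. LDHA and HK2 lie farthest to the left in Raji-4RH (-1.62 and -1.21), and ALDOC, ENO2, SLC2A3 and IDH2 lie to the right in both lines.

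Among the transporters, SLC2A1 encodes GLUT1, the widely expressed glucose carrier. Its level was 21.8 and 23.1 FPKM in Raji-4RH with DMSO, 20.7 and 25.9 there with chidamide, 31.8 and 28.8 in Raji with DMSO, and 29.6 and 29.6 there with chidamide. The groups with and without drug overlapped in each line, and neither change passed the test (0.04 and -0.03 on the log2 scale, with a sign that depended on the scaling). In Raji-4RH SLC2A1 was called higher with quantile normalization (0.26). SLC2A3, which encodes the high-affinity carrier GLUT3, had 0.0173 and 0.0153 FPKM in Raji-4RH with DMSO (2 reads each), 1.40 and 0.952 there with chidamide (121 and 108 reads), 0.773 and 0.983 in Raji with DMSO, and 2.42 and 1.98 there with chidamide. It was higher with chidamide in both lines, by 1.09 ± 0.11 (SE, adjusted p = 3.1e-05) in Raji-4RH and 0.77 ± 0.11 (adjusted p = 0.000471) in Raji, values that depend on the 1 FPKM added before the log, and GLUT1 transcripts still made up 95.0% and 93.1% of the FPKM of the pair in the treated groups. The interaction of SLC2A3 was 0.32 and not called. It was called with 0.1 FPKM added in place of 1 (2.2) and with voom on the recovered reads (4.475).

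Lactate leaves the cell through monocarboxylate transporters. SLC16A1, which encodes MCT1, was lower with chidamide in both lines (-0.51 and -0.38), with 33.5 and 33.3 FPKM against 48.3 and 47.8 in Raji-4RH. SLC16A3 encodes MCT4, the carrier associated with lactate export. It stood at 13.5 and 14.5 FPKM in Raji-4RH with DMSO, 20.4 and 17.9 there with chidamide, 0.259 and 0.298 in Raji with DMSO, and 0.232 and 0.224 there with chidamide. The 4 Raji libraries held 42 to 54 reads of the gene and the 4 Raji-4RH libraries 2281 to 2970. The Raji libraries thus stood far below the Raji-4RH libraries, and within Raji-4RH the gene was higher with chidamide by 0.42 ± 0.07 (adjusted p = 0.000767), and its share of the FPKM of both carriers went from 22.6% to 36.4%.

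Hexokinase commits glucose to metabolism inside the cell. HK1, the constitutive form, had 29.6 and 29.9 FPKM in Raji-4RH with DMSO, 32.8 and 34.8 there with chidamide, 21.0 and 19.9 in Raji with DMSO, and 26.5 and 27.7 there with chidamide. HK2, the inducible form often raised in tumors, had 37.7 and 38.5 FPKM in Raji-4RH with DMSO, 16.4 and 15.3 there with chidamide, 29.3 and 28.9 in Raji with DMSO, and 24.1 and 25.2 there with chidamide. HK2 fell in Raji-4RH to 0.416 of its DMSO level (-1.21 ± 0.05, adjusted p = 3.1e-07) and in Raji to 0.846 (-0.23 ± 0.05, adjusted p = 0.00606), and the changes differed between the lines (-0.98 ± 0.08, adjusted p = 3.67e-05). HK1 rose in Raji (0.39) and less clearly in Raji-4RH (0.18), where the call was lost without either Raji-4RH DMSO library (0.17 and 0.19) and with median-centred libraries (0.10). The call of HK2 in Raji was lost with quantile normalization (-0.14) and without Raji chidamide replicate 1 (-0.20). HK2 went from 56.1% to 31.9% of the hexokinase FPKM in Raji-4RH and from 58.7% to 47.6% in Raji.

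GPI, the isomerase that turns glucose-6-phosphate into fructose-6-phosphate, had 68.6 and 71.3 FPKM in Raji-4RH DMSO and 34.0 and 36.7 with chidamide, and 89.5 and 87.6 FPKM in Raji DMSO and 63.8 and 65.4 with chidamide. It was lower in both lines (-0.97 ± 0.06 and -0.45 ± 0.06), with a larger fall in Raji-4RH.

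Phosphofructokinase, the main control point of glycolysis, is built from liver (PFKL), muscle (PFKM) and platelet (PFKP) subunits. PFKL had 23.5 and 24.1 FPKM in Raji-4RH with DMSO, 27.5 and 28.6 there with chidamide, 36.3 and 31.5 in Raji with DMSO, and 47.0 and 46.3 there with chidamide. PFKM had 26.1 and 26.8, 25.0 and 25.2, 27.9 and 28.5, and 21.3 and 21.0 FPKM in the same order of groups. PFKP had 76.4 and 79.9 FPKM in Raji-4RH with DMSO, 44.6 and 45.4 there with chidamide, 41.8 and 36.5 in Raji with DMSO, and 26.3 and 28.6 there with chidamide. The subunits moved in different directions: PFKP was lower in both lines (-0.78 ± 0.07 and -0.50 ± 0.07), PFKL was higher (0.23 ± 0.07 and 0.45 ± 0.07), and PFKM was lower in Raji (-0.40 ± 0.05) while its value in Raji-4RH was -0.07. The call of PFKL in Raji-4RH was lost without either Raji-4RH DMSO library (0.21 and 0.24) and with median-centred libraries (0.15). PFKM in Raji-4RH was called higher with quantile normalization (0.15) and lower with median-centred libraries (-0.15). PFKP made up 60.9% of the phosphofructokinase FPKM in Raji-4RH DMSO and 45.9% with chidamide, and 38.6% and 28.8% in Raji.

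Aldolase splits fructose-1,6-bisphosphate. ALDOA, the abundant form, had 188.0 and 200.7 FPKM in Raji-4RH with DMSO, 116.7 and 139.7 there with chidamide, 184.1 and 178.3 in Raji with DMSO, and 159.4 and 159.5 there with chidamide. It was lower in Raji-4RH (-0.60 ± 0.08, adjusted p = 0.000214), and the value in Raji was -0.18 (adjusted p = 0.0912). In Raji ALDOA was called lower with median-centred libraries (-0.22) and in a fit of the Raji libraries alone (-0.18). ALDOC, the form known from brain, had 6.47 and 6.95 FPKM in Raji-4RH with DMSO, 10.7 and 12.0 there with chidamide, 13.4 and 14.4 in Raji with DMSO, and 40.7 and 39.8 there with chidamide. This was the largest rise of a member in Raji, by 1.47 ± 0.07 (adjusted p = 1.09e-06) or 2.90 times, against 0.68 ± 0.07 or 1.69 times in Raji-4RH. The share of ALDOC in the aldolase FPKM rose from 7.13% to 20.2% in Raji and from 3.33% to 8.14% in Raji-4RH. The files give ALDOA a length of 6153 bases and GENCODE v29 gives 3916, which bears on its level and on these shares but not on the changes.

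TPI1, which interconverts the triose phosphates, had 189.2 and 201.2 FPKM in Raji-4RH with DMSO, 141.2 and 130.9 there with chidamide, 454 and 473 in Raji with DMSO, and 397.4 and 383.7 there with chidamide. It was lower with chidamide by 0.52 in Raji-4RH and by 0.25 in Raji, where the call was lost without Raji DMSO replicate 2 or without Raji chidamide replicate 2 (-0.22 in both cases). GAPDH had 1580 and 1675 FPKM in Raji-4RH with DMSO, 1171 and 1283 there with chidamide, 2065 and 1964 in Raji with DMSO, and 1650 and 1664 there with chidamide. All 4 treated libraries lay below the DMSO libraries of their line, and the reference gene of the study was thus lower with the drug by 0.41 ± 0.08 (adjusted p = 0.00123) in Raji-4RH and by 0.28 ± 0.08 (adjusted p = 0.0121) in Raji. The call in Raji was lost with quantile normalization (-0.09), without the filter on low values, and without Raji DMSO replicate 1, Raji chidamide replicate 1 or Raji chidamide replicate 2 (-0.29 to -0.25).

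In the steps that follow, PGK1 and PKM make ATP, PGAM1 moves the phosphate and enolase removes water. PGK1 was lower in Raji-4RH (-0.16), a direction that turned to 0.12 with quantile normalization, and its call was also lost without either Raji-4RH DMSO library (-0.17 and -0.16). PGAM1 had 240.0 and 244.7 FPKM in Raji-4RH with DMSO, 128.8 and 132.1 there with chidamide, 278.2 and 284.0 in Raji with DMSO, and 244.1 and 240.2 there with chidamide, a fall of 0.89 ± 0.05 in Raji-4RH and of 0.21 ± 0.05 in Raji. The call in Raji was lost without Raji chidamide replicate 2 (-0.20). ENO1, the ubiquitous enolase, had 662 and 696 FPKM in Raji-4RH with DMSO, 424 and 442 there with chidamide, 1051 and 1039 in Raji with DMSO, and 949 and 951 there with chidamide, with a fall of 0.65 ± 0.06 in Raji-4RH and a value of -0.14 in Raji that did not pass the test. In Raji ENO1 was called lower with quantile normalization (-0.23) and with median-centred libraries (-0.18). It was also called lower there with voom on the recovered reads and in a fit of the Raji libraries alone (both -0.14). ENO2, the neuronal enolase, had 0.125 and 0.154 FPKM in Raji-4RH with DMSO (10 and 14 reads), 2.81 and 2.88 there with chidamide (168 and 227 reads), 0.343 and 0.278 in Raji with DMSO, and 0.646 and 0.976 there with chidamide. Its rise of 1.75 ± 0.09 in Raji-4RH (adjusted p = 4.97e-07) was larger than the 0.46 ± 0.09 in Raji, and in Raji-4RH the transcript went from 0.0205% to 0.652% of the enolase FPKM. The call in Raji was lost with quantile normalization (0.08). PKM, the pyruvate kinase gene, had 172.4 and 179.4 FPKM in Raji-4RH with DMSO, 126.5 and 139.9 there with chidamide, 259.6 and 260.2 in Raji with DMSO, and 268.5 and 270.2 there with chidamide, so that it was lower in Raji-4RH (-0.40, and -0.11 and not called with quantile normalization) and not in Raji (0.05).

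Lactate dehydrogenase is a tetramer of LDHA subunits, described as favoring the reduction of pyruvate, and LDHB subunits, described as favoring the reverse. LDHA had 209.4 and 211.3 FPKM in Raji-4RH with DMSO, 68.6 and 66.9 there with chidamide, 229.5 and 248.5 in Raji with DMSO, and 158.6 and 158.6 there with chidamide. The treated Raji-4RH libraries stood far below the other 6, and LDHA was the member with the largest fall, to 0.322 of the DMSO level in Raji-4RH (-1.62 ± 0.06, adjusted p = 9.88e-08) and to 0.664 in Raji (-0.59 ± 0.06, adjusted p = 4.72e-05), with an interaction of -1.03 ± 0.08 (adjusted p = 3.37e-05). LDHB had 462 and 454 FPKM in Raji-4RH with DMSO, 432 and 358 there with chidamide, 470.4 and 496.8 in Raji with DMSO, and 438 and 435 there with chidamide. Its fall in Raji-4RH was at the threshold (-0.22 ± 0.09, adjusted p = 0.0486) and was lost in 7 of the 8 fits that left out 1 library, all but the fit without Raji-4RH chidamide replicate 1 (-0.23 to -0.08). LDHA went from 31.5% to 14.7% of the lactate dehydrogenase FPKM in Raji-4RH and from 33.1% to 26.7% in Raji.

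**Figure D3:**
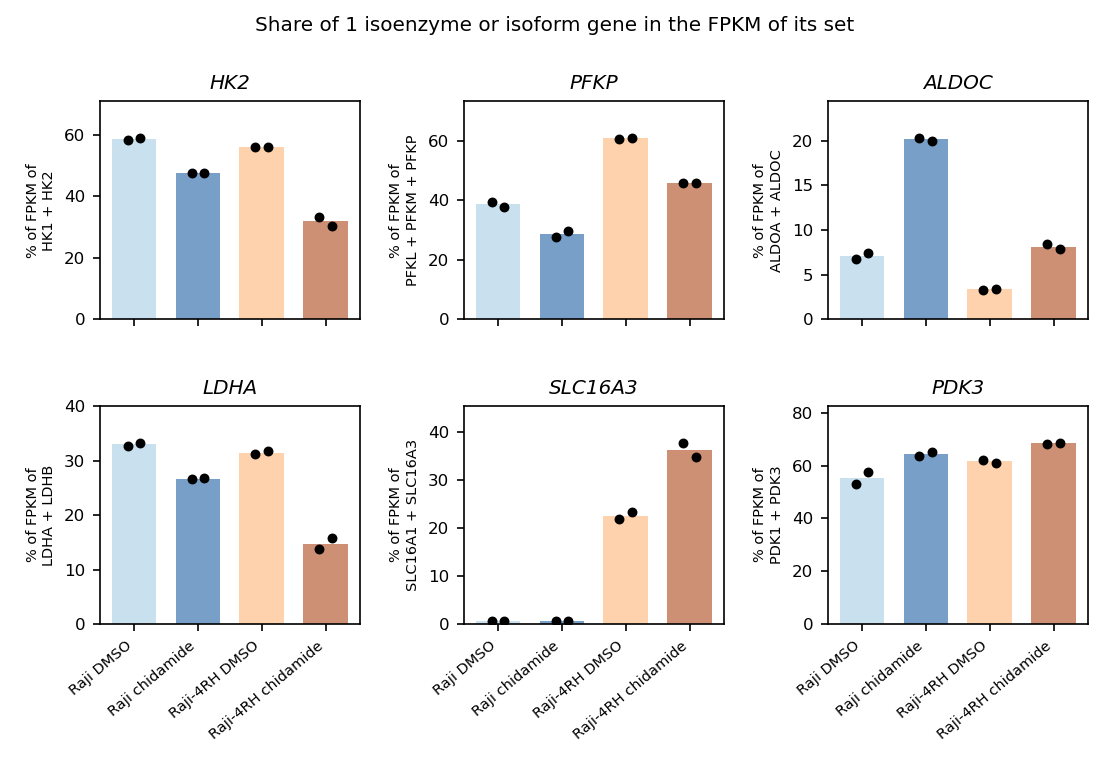
Share of HK2, PFKP, ALDOC, LDHA, SLC16A3 and PDK3 in the summed FPKM of the genes of the same step, in percent; bars are the mean of 2 libraries and points the libraries, and each panel has its own axis from 0. HK2, PFKP and LDHA take a smaller share with chidamide in both lines and ALDOC a larger one, while SLC16A3 is under 1% of its pair in Raji. The sizes of the ALDOC and PDK3 shares depend on the gene lengths given in the files.

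The pyruvate dehydrogenase complex turns pyruvate into acetyl-CoA inside the mitochondrion. Its E1 alpha subunit is PDHA1, and the PDK kinases switch the complex off. PDHA1 was lower with chidamide in both lines (-0.47 and -0.20), with 32.3 and 32.3 FPKM against 43.9 and 46.3 in Raji-4RH. In Raji its call was lost with quantile normalization (-0.06) and without Raji DMSO replicate 2 or Raji chidamide replicate 1 (-0.17 in both). PDK1 had 5.11 and 5.12 FPKM in Raji-4RH with DMSO, 4.76 and 5.14 there with chidamide, 4.63 and 4.67 in Raji with DMSO, and 3.44 and 3.71 there with chidamide, and it was lower in Raji only (-0.30 against -0.04), an interaction of 0.26 (adjusted p = 0.0325) that was lost with quantile normalization (0.18) and in 6 of the 8 fits that left out 1 library (0.22 to 0.27), all but those without Raji-4RH chidamide replicate 1 or Raji chidamide replicate 2. With quantile normalization PDK1 was called lower in Raji-4RH too (-0.23). PDK3 had 8.33 and 8.05 FPKM in Raji-4RH with DMSO, 10.1 and 11.3 there with chidamide, 5.21 and 6.36 in Raji with DMSO, and 6.03 and 6.89 there with chidamide. It was higher in Raji-4RH (0.35 ± 0.10, adjusted p = 0.00999), a call that was lost without Raji-4RH DMSO replicate 2 (0.33), and the Raji groups overlapped. The files give PDK3 a length of 2695 bases and GENCODE v29 gives 4951, which bears on its level and on its share beside PDK1.

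In the TCA cycle, CS condenses acetyl-CoA with oxaloacetate. It had 73.4 and 74.4 FPKM in Raji-4RH with DMSO, 39.9 and 43.6 there with chidamide, 63.7 and 63.8 in Raji with DMSO, and 44.2 and 41.7 there with chidamide, a fall of 0.81 ± 0.06 and 0.56 ± 0.06. The isocitrate dehydrogenases moved in opposite directions. IDH3A, the catalytic subunit of the NAD-dependent enzyme of the cycle, had 13.8 and 14.8 FPKM in Raji-4RH with DMSO, 7.91 and 7.15 there with chidamide, 20.5 and 20.7 in Raji with DMSO, and 12.5 and 13.0 there with chidamide, and it was lower in both lines (-0.84 ± 0.06 and -0.66 ± 0.06). IDH2, the NADP-dependent mitochondrial enzyme, had 4.66 and 4.26 FPKM in Raji-4RH with DMSO, 12.9 and 13.9 there with chidamide, 19.3 and 18.7 in Raji with DMSO, and 31.7 and 30.5 there with chidamide. It was 3.00 times its DMSO level in Raji-4RH (1.40 ± 0.06, adjusted p = 2.98e-07) and 1.64 times in Raji (0.68 ± 0.06, adjusted p = 3.54e-05), with an interaction of 0.71 ± 0.09 (adjusted p = 0.000342). With chidamide, Raji-4RH still lay below Raji DMSO.

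The other genes of the cycle moved less. OGDH, a component of the 2-oxoglutarate dehydrogenase complex, had 61.2 and 62.9 FPKM in Raji-4RH with DMSO, 44.2 and 48.6 there with chidamide, 65.9 and 62.0 in Raji with DMSO, and 42.7 and 43.5 there with chidamide (-0.41 and -0.56). SUCLG1, the alpha subunit of succinyl-CoA ligase, had 29.5 and 28.8 FPKM in Raji-4RH with DMSO, 23.0 and 19.9 there with chidamide, 15.3 and 15.9 in Raji with DMSO, and 16.2 and 15.6 there with chidamide, with a fall of 0.43 ± 0.07 in Raji-4RH alone called and a difference between the lines of -0.45 ± 0.10 (adjusted p = 0.00643). SDHA and SDHB, subunits of succinate dehydrogenase, were lower in Raji-4RH (-0.25 and -0.46) and in Raji (-0.26 and -0.42), with differences between the lines of 0.01 ± 0.07 and -0.04 ± 0.08 that did not pass the test. FH, the fumarase, was lower in Raji-4RH (-0.32) with a value of 0.10 in Raji, an interaction of -0.42 (adjusted p = 0.0025). In Raji FH was called higher with quantile normalization (0.25). MDH2, the mitochondrial malate dehydrogenase, was lower in Raji (-0.25), a call that was lost without any of the 4 Raji libraries (-0.25 to -0.24) and with quantile normalization (-0.15), and its value in Raji-4RH was -0.09. The calls of OGDH (-0.13), SDHA (-0.03), SDHB (-0.16) and FH (-0.04) in Raji-4RH were lost with quantile normalization.

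The lines were then compared without the drug, which asked how the pathway differed between the resistant and the sensitive cells. In Raji-4RH DMSO against Raji DMSO, 24 of the 33 members were called, 11 higher and 13 lower, against 73.6% of all genes, 41.2% higher and 32.4% lower. The median was -0.04 for the members, which turned to 0.0365 with quantile normalization, and 0.06 for all genes. Members were called in both directions among the transporters and the genes of upper glycolysis, lower glycolysis and the TCA cycle, while LDHA (lower) and PDK3 (higher) were the only calls in their groups. SLC16A3 had by far the largest difference, with 50.3 times the mean FPKM of Raji (3.55 ± 0.07, adjusted p = 2.95e-09). It was followed among the higher genes by PFKP (0.98 ± 0.07), SUCLG1 (0.86 ± 0.07), HK1 (0.52 ± 0.05) and PDK3 (0.44 ± 0.10), and among the lower genes by IDH2 (-1.87 ± 0.06, or 0.235 of the Raji level), TPI1 (-1.24 ± 0.06, or 0.421), ALDOC (-0.95 ± 0.07), ENO1 (-0.62 ± 0.06) and PKM (-0.56 ± 0.06). SLC2A3 was lower by 0.88 ± 0.11, with 2 reads in each Raji-4RH library against 94 and 122 in Raji. In lower glycolysis 4 of 6 genes were lower in Raji-4RH, and in upper glycolysis 4 of 9. GAPDH, lower by 0.31, turned to 0.07 with quantile normalization and its call was lost without Raji-4RH DMSO replicate 1 (-0.27). In the TCA cycle 4 of 9 were higher (CS, SUCLG1, SDHA and SDHB) and 2 lower (IDH2 and IDH3A). The calls of CS (without Raji-4RH DMSO replicate 2, 0.20), SDHB (without Raji DMSO replicate 1, 0.18), LDHA (-0.18, and -0.19 to -0.13 without Raji DMSO replicate 2 or either Raji-4RH DMSO library) and SLC16A1 (0.14, and 0.10 to 0.15 in 5 of the 8 fits without 1 library) were each lost in those fits.

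With chidamide, 29 of the 33 members differed between the lines, 12 higher and 17 lower in Raji-4RH, against 79.3% of all genes, 44.3% higher and 35.0% lower, with a median of -0.24 against 0.09. With quantile normalization the split was 15 higher and 15 lower, for which no share of all genes was counted. HK2 was higher in Raji-4RH than in Raji with DMSO (0.38) and lower with chidamide (-0.61). The difference of LDHA was -0.18 with DMSO and -1.21 with chidamide, that of PGAM1 -0.21 and -0.89, that of GPI -0.34 and -0.85, and that of ENO1 -0.62 and -1.13. For IDH2 it was smaller with the drug (-1.87 and -1.16), and for ALDOC larger (-0.95 and -1.75). ENO2 was higher in treated Raji-4RH (1.09), with 0.449 of the Raji level in DMSO that did not pass the test (-0.20). That value depends on the 1 FPKM added before the log, with 10 and 14 reads in Raji-4RH DMSO against 29 and 24 in Raji DMSO. ENO2 was called lower in Raji-4RH DMSO with 0.1 FPKM added in place of 1 (-0.78). So it was with quantile normalization (-0.44), median-centred libraries (-0.25) and voom on the recovered reads (-1.115). In SLC16A3 the ratio of the means was 84.0. These pairs of values share no library, and the interaction above is the test of their difference.

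**Figure D4:**
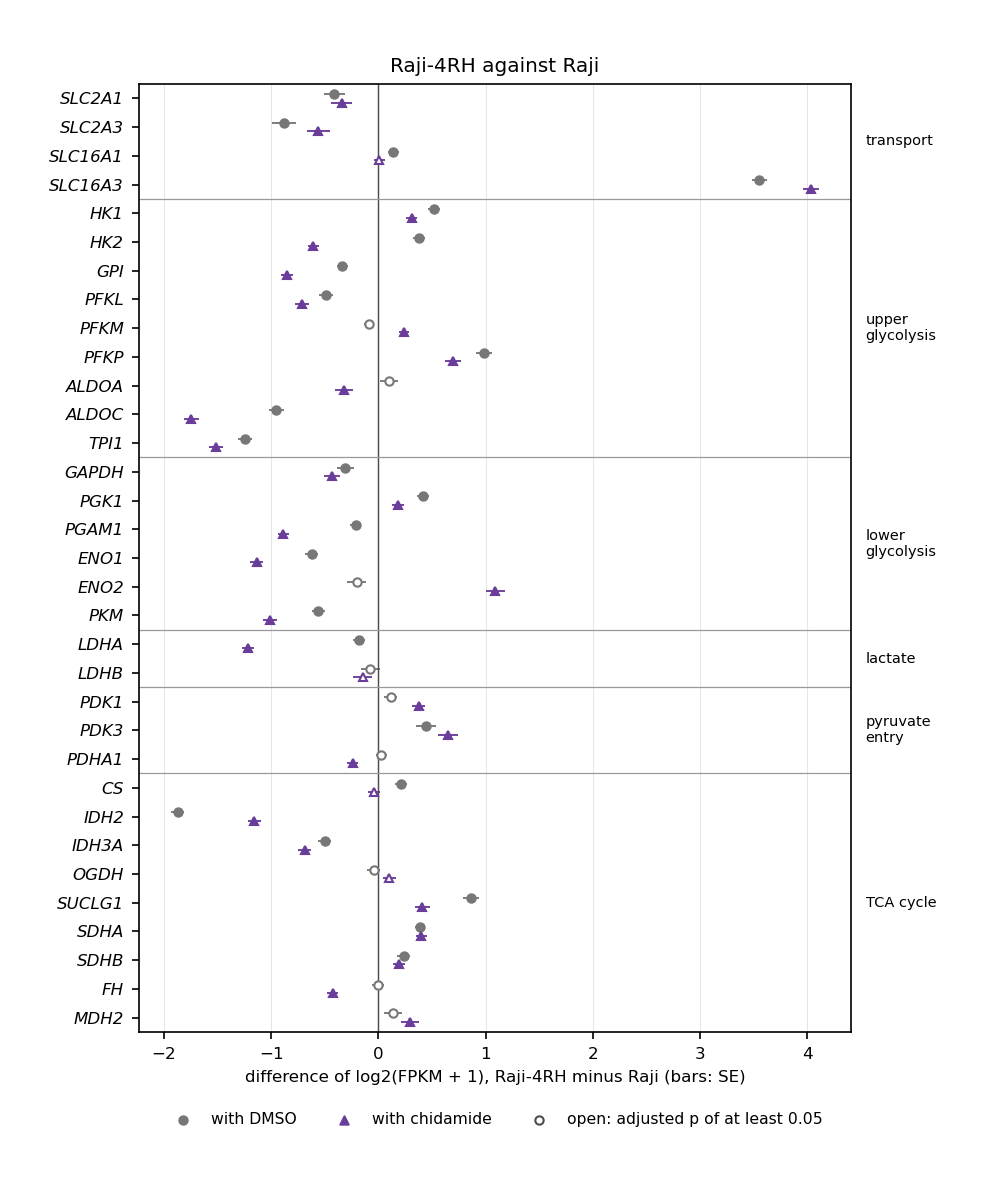
Difference of log2(FPKM + 1) between Raji-4RH and Raji for the 33 members with DMSO (grey circles) and with chidamide (purple triangles), with bars for the standard error and open symbols for an adjusted p of at least 0.05. SLC16A3 lies farthest to the right (3.55 and 4.03), IDH2, TPI1 and ALDOC lie to the left in both, and HK2 lies on opposite sides (0.38 and -0.61).

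Other genes around the pathway were counted from lists written with earlier results of these data known. Of 29 tested genes of pyruvate metabolism and the TCA cycle that are not members, 6 were higher and 16 lower with chidamide in Raji-4RH, and 6 and 11 in Raji. With quantile normalization the split in Raji-4RH was 9 higher and 13 lower. The counts without quantile normalization, here and in the lists that follow, stand beside the shares of all genes given above. These were 43.3% higher and 31.6% lower in Raji-4RH and 31.5% and 28.5% in Raji. DLAT, the E2 subunit of pyruvate dehydrogenase, went from 38.3 and 38.3 FPKM to 14.7 and 15.2 in Raji-4RH (-1.30) and from 41.1 and 44.4 to 30.0 and 29.8 in Raji (-0.50). PDP1, the phosphatase that reverses the PDK kinases, rose in both lines (1.12 and 0.82), with 6.18 and 6.04 FPKM against 15.2 and 13.7 in Raji-4RH. OGDHL, a relative of OGDH, had 23.6 and 24.2 FPKM in Raji-4RH DMSO and 24.2 and 27.2 with chidamide and was at 0 in all 4 Raji libraries, and SDHC, a further subunit of succinate dehydrogenase, had 8.17 and 7.90 FPKM in Raji-4RH DMSO and 1.09 and 1.01 in Raji DMSO.

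Of 9 pentose phosphate pathway genes, 6 were lower and 2 higher in Raji-4RH and 4 lower and 1 higher in Raji (2 and 2 with quantile normalization), with PRPS1, which makes phosphoribosyl pyrophosphate, lower in both (-1.01 and -0.60). Among 26 nuclear genes of the respiratory chain, 15 were lower and 1 higher in Raji-4RH, a split that became 8 lower and 9 higher with quantile normalization, and 13 were lower and 1 higher in Raji (11 and 3 with quantile normalization). Of 17 tested genes in a wider list around glycolysis, 9 were higher and 5 lower in Raji-4RH, and 6 and 6 in Raji. With quantile normalization the splits were 7 and 4, and 5 and 6. The 9 higher in Raji-4RH were ENO3, LDHD, BPGM, PFKFB2, PFKFB4, FBP1, FBP2, MINPP1 and SLC2A5. These include the fructose bisphosphatases FBP1 and FBP2 and the sugar carrier SLC2A5, so the split does not speak for glycolysis enzymes alone. In Raji-4RH, quantile normalization lost the calls of PFKFB4, FBP1 and PGM2 (lower), and PFKFB2 turned to -0.10 without a call. Among 18 regulators, 4 were higher and 6 lower in Raji-4RH and 6 and 5 in Raji. HIF1A, the oxygen-regulated subunit of HIF1, went from 12.5 and 12.3 to 22.7 and 23.1 FPKM in Raji-4RH (0.84) and from 27.0 and 28.9 to 44.8 and 42.3 in Raji (0.62), and BNIP3, a mitophagy gene described as its target, stood at 11.0 to 12.4 FPKM in Raji-4RH and at 0.460 to 0.625 in Raji. With chidamide BNIP3 was called in neither line (0.09 in Raji-4RH and -0.12 in Raji), and neither was MYC (-0.21 and 0.06). BNIP3L was higher in both lines (0.83 and 0.48). VEGFA was lower in Raji-4RH (-0.48) and not called in Raji (-0.09). The part of these regulators in the changes of the members was not tested.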

How the data were processed

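RNA was taken from Raji and Raji-4RH cells after 24 h with 3 μM chidamide or DMSO, and libraries were prepared with a NEBNext Ultra kit. Conditions were taken from the sample labels. FPKM values were deposited as 1 table of genes by libraries, together with the length of each gene in bases. HISAT2 2.0.5, SAMtools 1.7, HTSeq 0.9.1 and DESeq2 1.22.2 are named in the submitters' processing notes, with the build hg38, and their settings are not given in the sources used here. FPKM times length and library total gave whole reads within 0.05 read for 100% of the values.

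The table has 63967 labels but 63305 rows of values, and the last 662 rows repeat the first 662, so that values stand below their labels from row 6235 on. Each gene was given the values of its own row by fixed shifts of up to 14 rows, with FPKM rescaled to the gene's own length. This placed 18143 labels and 90.7% to 93.2% of the reads, and 15 members were moved, by at most 7 rows. As a check, 110 of 122 ribosomal, proteasome, translation and respiratory chain genes in the shifted rows had at least 5 FPKM at the row used and 49 at the label's row, and of 306 olfactory receptor and keratin-associated genes 0 and 109 did. The lengths equal GENCODE v29 for 96.6% of 58039 IDs and for 25 of the 33 members.

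Differences were tested on log2(FPKM + 1) with limma 3.58.1 in R 4.3.3, by lmFit and a trended eBayes. A single fit of the 4 group means covered the 8 libraries and the 10710 genes that reached 1 FPKM in 2 or more of them. Calls are at a Benjamini-Hochberg adjusted p under 0.05 over all of these genes, and ± after a change is its SE. In simulated data for chidamide against DMSO in Raji-4RH with 10710 genes, 88 of 100 genes changed 2-fold and 98 of 100 changed 4-fold were called, with 12 unchanged genes. The simulation gave all genes the same set spread and changed only these genes, equally up and down. It cannot show how calls behave in the real data, where 74.9% of genes were called in that comparison. Alternatives were other normalizations, filters and pseudocounts, limma without trend, a replicate block, limma voom on the recovered reads, the rows as deposited, a size threshold and leaving out each library. Per-library values were given for the 5 largest rises and falls among called members with a mean of at least 5 FPKM, for isoenzyme sets and for GAPDH. The members and lists were chosen with earlier results of these data known. Python 3.11.15 with pandas 2.3.3, numpy 2.4.6 and matplotlib 3.10.9 was used.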

Additional observations from a re-analysis of the deposited data

Results flagged for a closer look

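The effect of chidamide differed between Raji-4RH and Raji in 20 members by the interaction term of limma at an adjusted p under 0.05, which 48.8% of all genes passed. The values are the change in Raji-4RH minus the change in Raji, on the scale of log2(FPKM + 1). Lower values in Raji-4RH were found for LDHA (-1.03), HK2 (-0.98), ALDOC (-0.79), PGAM1 (-0.67), GPI (-0.52), ENO1 (-0.51), SUCLG1 (-0.45), PKM (-0.45), FH (-0.42), ALDOA (-0.42), PFKP (-0.29), TPI1 (-0.27), PDHA1 (-0.27), CS (-0.25) and PGK1 (-0.23). Higher values were found for ENO2 (1.29), IDH2 (0.71), SLC16A3 (0.48), PFKM (0.33) and PDK1 (0.26). Of these, ALDOC rose in both lines and rose less in Raji-4RH. The calls of ALDOA, CS, PDHA1, PDK1, PFKP, PGK1 and TPI1 were lost in 3 to 6 of the 8 fits without 1 library. With quantile normalization these 7 calls and that of PKM (-0.24) were lost, TPI1 with a change of sign (0.0194), and with voom on the recovered reads the call of SLC16A3 was lost (0.73).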

How the results depend on the processing

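For single members, 2592 values kept their direction and side of the threshold, 123 lost the call, 55 gained it and 35 changed sign. With rows as deposited 15 members were called in Raji and 13 in the interaction, and there a shifted member's row holds another gene. A size of at least 0.5 on the log2 scale was also required, for which no share of all genes was counted. The counts were then 15 in Raji-4RH, 7 in Raji, 8 for the interaction, and 11 and 16 between the lines with DMSO and chidamide. Without 1 library they were 24 to 30, 19 to 26, 13 to 23, 21 to 25 and 25 to 31, and with voom on the recovered reads 29, 24, 21, 25 and 29. The replicate numbers are shared only as numbers (correlations of deviations 0.17, -0.09, -0.16 and 0.01 between same-numbered groups). With the replicate block the counts were 28, 23, 17, 23 and 29, and 25 for the lines with DMSO when the Raji numbers were crossed, a pairing added after the data were seen. Signs changed with quantile normalization for PFKM (0.15), PGK1 (0.12) and MDH2 (0.18) in Raji-4RH, SLC2A1 (0.0675) in Raji, TPI1 (0.0194), SLC2A3 (-0.0140) and SDHB (0.0976) in the interaction, GAPDH (0.0677), OGDH (0.0365) and FH (0.0620) between the lines with DMSO, and CS (0.15) with chidamide. With median-centred libraries they changed for SLC2A1 (-0.0335) in Raji-4RH, SUCLG1 (-0.0174) in Raji, SDHA (-0.0213) in the interaction, PDHA1 (-0.0174) between the lines with DMSO and SLC16A1 (-0.0700) with chidamide. Over the fits without 1 library the signs changed for SLC2A1 (-0.11 to 0.20), PDK1 (-0.0864 to 0.00514) and MDH2 (-0.22 to 0.0412) in Raji-4RH, SLC2A1 (-0.10 to 0.0396) and SUCLG1 (-0.00296 to 0.0510) in Raji, LDHB (-0.21 to 0.0637), SLC2A1 (-0.0819 to 0.23), SDHA (-0.00533 to 0.0331) and SDHB (-0.0987 to 0.0147) in the interaction, PDHA1 (-0.0106 to 0.0646), OGDH (-0.0846 to 0.000556) and FH (-0.0554 to 0.0451) between the lines with DMSO, and SLC16A1 (-0.00520 to 0.0243) and CS (-0.10 to 0.0221) with chidamide. The cause was not tested. Depth limited SLC2A3 (2 reads per library) and ENO2 (10 and 14) in Raji-4RH DMSO. The interaction of SLC2A3 was called with a pseudocount of 0.1 (2.2) and with voom on the recovered reads (4.475).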

Other observations

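The cytosolic malate dehydrogenase gene MDH1, which is not among the 33 members, was called in opposite directions in the lines. It had 42.3 and 40.7 FPKM in Raji-4RH DMSO and 33.2 and 34.9 with chidamide (-0.28, and -0.04 without a call after quantile normalization), and 19.8 and 20.8 FPKM in Raji DMSO and 33.7 and 33.2 with chidamide (0.70). The difference between the lines in limma was -0.98 (adjusted p = 3.46e-05). GOT1, its partner in the malate-aspartate shuttle, had 40.9 and 40.9 FPKM in Raji-4RH DMSO and 20.0 and 21.3 with chidamide (-0.95), and 21.9 and 25.3 FPKM in Raji DMSO and 22.5 and 22.6 with chidamide (-0.06, not called). GLUD1, which turns glutamate into 2-oxoglutarate, was lower in both lines (-0.80 in Raji-4RH and -1.01 in Raji). NDUFV1, a complex I subunit, had 26.4 and 28.1 FPKM in Raji-4RH DMSO and 86.2 and 81.9 in Raji DMSO (-1.59).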
